A study of Mus musculus with 6 samples.

Results

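The 8 genes described here, Dbp, Tef, Hlf, Nfil3, Bhlhe40, Bhlhe41, Rora and Ciart, encode transcription factors that carry the signal of the circadian clock to other genes. They were chosen by name, with earlier results of these data known. All 8 were represented on the array, by 10 probes whose RefSeq accession mapped to 1 of the names, out of 20128 genes that had a probe with a symbol. Expression was compared between hearts of C57/B6 mice aged 8 weeks. The 3 control hearts carried floxed alleles of PHD2 and PHD3 without Cre (PHD2/3f/f; Cre-/-), and the 3 KO-labelled hearts carried the same floxed alleles with Cre (PHD2/3f/f; Cre+/-), so that both groups shared the floxed background. One array of a single colour (Cy3) was hybridised per heart. The labels call the hearts biological replicates and give no Cre promoter, no deleted exon, no sex, no feeding state and no time of day at which hearts were taken. PHD2 and PHD3 are prolyl hydroxylases that use oxygen to tag hypoxia-inducible factors (HIF) for breakdown.

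The circadian clock is a feedback loop in which CLOCK and its partner BMAL1, the product of Arntl, bind E-box sequences and switch on their own repressors, among them the Per, Cry and Nr1d genes. Its outputs pass through further factors. DBP, TEF and HLF form the PAR bZIP family and activate genes that carry a D-box, while NFIL3 occupies the same sequence as a repressor. BHLHE40 (DEC1) and BHLHE41 (DEC2) compete with CLOCK and BMAL1 at E-boxes, RORA activates genes with ROR elements such as Arntl, and CIART (CHRONO) represses CLOCK and BMAL1. The heart has a clock of its own, and the abundance of PAR bZIP transcripts in heart muscle swings widely over the day. Bhlhe40, Bhlhe41 and Rora are also known as genes that HIF can activate.

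Promoter sequence from RefSeq (build GRCm38.p6) was held for 7 of the 8 genes (all but Bhlhe40), in 8 windows. They ran from 250 bases before to 50 after an annotated start. These windows were searched on both strands for the E-box CACGTG, the site through which CLOCK and BMAL1 act and BHLHE40, BHLHE41 and CIART oppose them. Tef, Bhlhe41 and Ciart had it, against 7.15% of 32851 promoter windows of the same length. The 3 sequences are shown because the data below put these E-box genes on both sides, with Tef lower and Bhlhe41 higher in the KO-labelled hearts. Each is written 5′ to 3′ in the direction of the gene and ends at the outermost annotated start, with the E-box in capitals.
Tef (chr15:81802423-81802672, plus strand): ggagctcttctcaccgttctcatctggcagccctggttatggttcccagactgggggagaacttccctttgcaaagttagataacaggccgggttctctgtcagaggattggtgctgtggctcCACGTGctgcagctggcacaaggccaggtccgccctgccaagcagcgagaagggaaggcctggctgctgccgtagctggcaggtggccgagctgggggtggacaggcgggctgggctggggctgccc
Bhlhe41 (chr6:145865421-145865670, minus strand): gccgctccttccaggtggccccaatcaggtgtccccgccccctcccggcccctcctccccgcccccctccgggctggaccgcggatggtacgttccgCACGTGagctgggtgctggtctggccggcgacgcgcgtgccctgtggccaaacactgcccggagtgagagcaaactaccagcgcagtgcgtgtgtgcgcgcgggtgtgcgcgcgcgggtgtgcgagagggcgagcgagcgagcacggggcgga
Ciart (chr3:95882258-95882478, minus strand): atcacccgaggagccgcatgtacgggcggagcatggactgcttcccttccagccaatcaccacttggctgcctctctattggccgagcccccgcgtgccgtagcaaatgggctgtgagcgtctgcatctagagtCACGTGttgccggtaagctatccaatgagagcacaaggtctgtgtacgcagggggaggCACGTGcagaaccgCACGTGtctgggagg

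Ciart held 3 copies, whose first bases lay at -116, -58 and -44, counted back from the annotated start that defines its window. Tef held 1 at -127 and another 1 at -138 of a further annotated start inside the gene, and Bhlhe41 held 1 at -153. The D-box was searched as TTATGTAA or TTACGTAA and was in 0 of the 8 windows, and in 1.06% of all windows. The ROR element core TAGGTCA was found for Nfil3, at -12, and in 2.61% of all windows. The cAMP response element TGACGTCA was found for Hlf, at -9, and in 1.79% of all windows. The short HIF site, ACGTG or GCGTG, occurred for 6 of the 7 genes with a window (all but Nfil3) and in 43.8% of all windows. It overlaps every E-box. These matches describe the letters of short windows and not binding.

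Of the 20014 genes and unnamed features tested over the whole array, 39.1% passed an adjusted p of 0.05 in limma's moderated test, 16.1% higher and 23% lower in the KO-labelled hearts, with a median log2 difference of -0.11. The KO-labelled and control hearts did not overlap for 55.9% of them. Between 46.3% and 51.0% of probes lay well above background on each array, and none of the member probes was saturated. The targeted genes split, with Egln1 (PHD2) lower by a log2 difference of -1.23 and Egln3 (PHD3) higher by 1.98, so the Egln3 signal went against the label, and it is not known whether the probes lie in the deleted part. Replicate 1 of the KO-labelled hearts stood apart from the controls more often than the others: it was the KO-labelled heart furthest from the control mean for 54.2% of all genes and features. For the clock genes and lists named below, the value without it is given where it changed a call or moved a fold by over 1.5 times. As background to whole-tissue RNA, 6 of 8 cardiomyocyte markers were lower, 6 of 8 fibroblast markers were higher and 3 of 7 macrophage markers were higher (1 was lower), while 0 of 8 endothelial markers passed (2 were lower at an unadjusted p of 0.05 in limma). The summed linear level of a list, in units of the array's 75th percentile, was 8016 to 9196 in control and 5799 to 7108 in KO-labelled hearts for the cardiomyocyte markers, 409.9 to 757.1 and 1042 to 1174 for the fibroblast markers, and 111.9 to 143 and 153.8 to 235.7 for the macrophage markers. Of 8 smooth muscle and pericyte markers 3 were higher and 2 lower, of 4 tested lymphocyte markers 2 were higher, and of 3 erythroid and 4 adipocyte markers 0 passed, also at an unadjusted p of 0.05. The adipocyte markers differed widely between hearts of the same group. Their summed level was 0.57 to 12.39 in control and 0.71 to 43.56 in KO-labelled hearts, and each was highest in KO-labelled replicate 2. The part of such shifts in the results below was not tested. Neither Xist probe rose well above background in any heart, and the Y-linked genes Ddx3y, Eif2s3y and Uty were well above it on all 6. For a single gene the exact permutation test has 0.1 as its smallest p at this group size. Calls therefore rest on limma's assumption of normal errors, with a variance estimate that is partly shared across genes.

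Of the 8 clock output genes, all tested, Tef, Hlf and Rora were lower and Bhlhe40 and Bhlhe41 higher in the KO-labelled hearts, and Dbp, Nfil3 and Ciart did not pass. That made 5 of 8 called, beside 39.1% of everything tested, and 6 of 8 without overlap between groups, beside 55.9%. The median log2 difference over the 8 was -0.74. Only Tef and Bhlhe40 passed under each of the 20 alternative settings tried, which included normexp (a background model that shrinks differences of dim probes), cyclic loess (a scaling by signal level) and scaling on E1A spike-in probes. All values below are log2 signals relative to the 75th percentile of the array, and differences are KO-labelled minus control on that log2 scale. In whole hearts, fewer cells of a type and less RNA per cell cannot be told apart. Since no time of day is given, a difference in collection time between hearts cannot be told apart from one of genotype either.

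**Figure D1:**
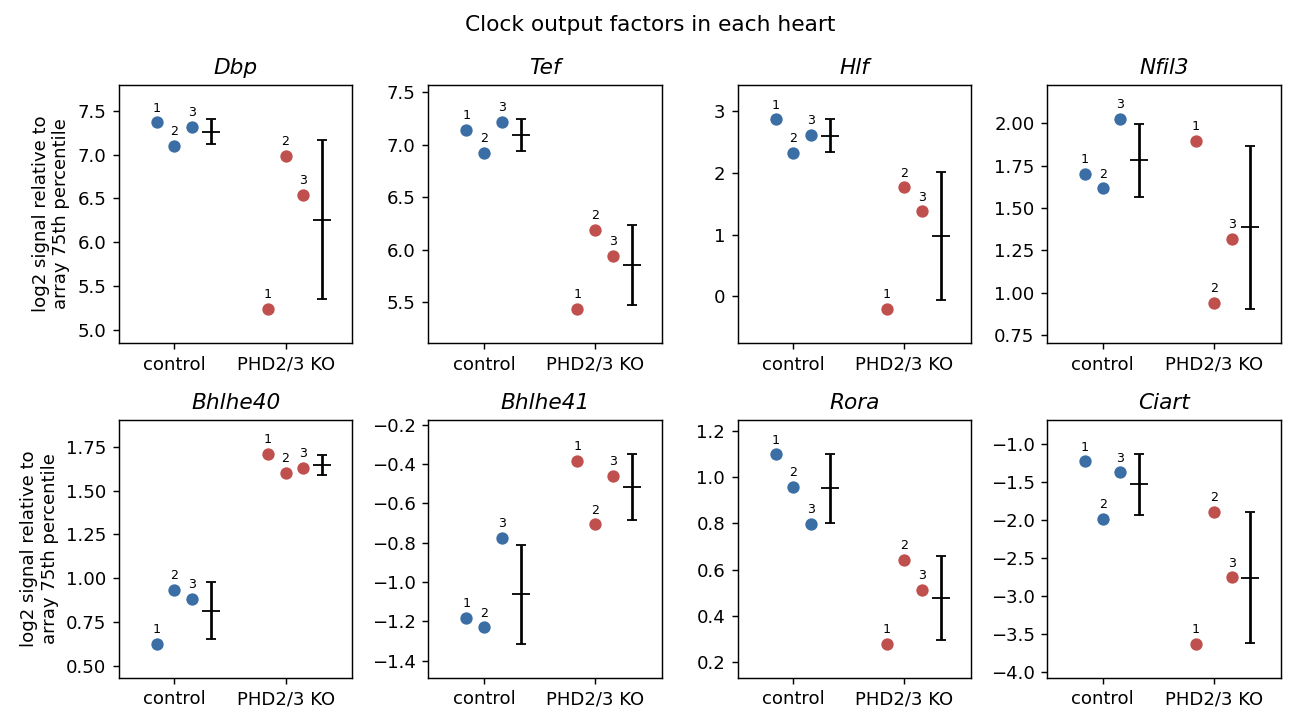
Log2 signal (vertical axis, relative to the 75th percentile of the array) of the 8 genes in each heart, numbered by replicate, with the mean and SD of each group (n = 3) in black; the vertical scale differs between panels. Bhlhe40 separated into tight groups, while the KO-labelled hearts were wide apart for Dbp, Hlf and Ciart, with replicate 1 lowest in each.

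Tef, the thyrotroph embryonic factor, fell, with the smallest error of the PAR bZIP activators. Its signal was 7.14, 6.92 and 7.22 in the control hearts and 5.44, 6.19 and 5.94 in the KO-labelled hearts, from replicate 1 to replicate 3. Every KO-labelled heart lay below every control heart, by at least the gap between 6.92 and 6.19. The means were 7.09 ± 0.15 and 5.85 ± 0.38 (SD, n = 3 each), a 2.36-fold fall (log2 difference -1.24 ± 0.21 SE, limma adjusted p = 0.00679). Without replicate 1 of the KO-labelled hearts the difference was -1.03 (adjusted p = 0.00974).

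Hlf, the hepatic leukaemia factor of the same family, fell and had the largest difference of the 8. Its control hearts read 2.87, 2.33 and 2.62, and its KO-labelled hearts -0.20, 1.77 and 1.38. All 3 KO-labelled hearts were below the controls, and replicate 1 was far below the other two. The means were 2.61 ± 0.27 and 0.98 ± 1.04 (SD, n = 3 each), a 3.09-fold fall (log2 difference -1.63 ± 0.49 SE, limma adjusted p = 0.0402). Without that replicate 1 the difference was -1.03 and passed (adjusted p = 0.0199), but Hlf did not pass without any 1 of the control hearts (adjusted p = 0.12, 0.0652 and 0.103 without control replicates 1, 2 and 3), without KO-labelled replicate 3 (0.0618), with cyclic loess (0.056) or with spike-in scaling (0.0552).

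Dbp, the D-box binding protein and the best known clock output gene, did not pass, although its groups did not overlap. Control hearts read 7.37, 7.10 and 7.32, and KO-labelled hearts read 5.24, 6.99 and 6.54. The control hearts lay close together, replicate 2 of the KO-labelled hearts lay just under them and replicate 1 well under. The means were 7.26 ± 0.14 and 6.26 ± 0.91 (SD, n = 3 each), with a log2 difference of -1.01 ± 0.42 SE (95% interval from -2.02 to 0.01, limma adjusted p = 0.101). The other Dbp probe gave the same picture, reading 7.30, 6.87 and 7.12 for control against 5.12, 6.85 and 6.38 for KO-labelled hearts. The difference depended on single hearts: it was -0.50 without KO-labelled replicate 1 (adjusted p = 0.0894) and -1.37 without KO-labelled replicate 2, where it passed (adjusted p = 0.0374).

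Nfil3, which encodes the repressor that competes with the PAR bZIP factors at the D-box, overlapped between groups. It read 1.70, 1.62 and 2.02 in control hearts and 1.90, 0.94 and 1.32 in KO-labelled hearts. Here replicate 1 was the highest of the KO-labelled hearts and lay among the controls, and the others lay below the controls. The log2 difference was -0.39 ± 0.26 SE (95% interval from -1.01 to 0.22, limma adjusted p = 0.255). It was -0.65 without KO-labelled replicate 1 (adjusted p = 0.0522), -0.17 without KO-labelled replicate 2 (0.58) and -0.15 with spike-in scaling (0.719).

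Set against the control means within each heart, the repressor and the activators of the D-box moved unequally in replicate 1 of the KO-labelled hearts. The mean shift of Dbp, Tef and Hlf was -2.16 there, with -0.67 in replicate 2 and -1.03 in replicate 3. Nfil3 shifted by 0.12, -0.84 and -0.46 in the same hearts. The shift of Nfil3 less that of the PAR bZIP genes was therefore 2.28, -0.16 and 0.57, while it spanned -0.22 to 0.18 in the controls. Only replicates 1 and 3 lay outside the control range on the high side, and no test was made of this combined value.

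Bhlhe40 rose and had the smallest pooled SD of the 8. Its signal was 0.63, 0.94 and 0.88 in the control hearts and 1.71, 1.60 and 1.63 across KO-labelled hearts. The KO-labelled hearts lay between 1.60 and 1.71, all above the controls. The means were 0.81 ± 0.17 and 1.65 ± 0.06 (SD, n = 3 each), a 1.78-fold rise (log2 difference 0.83 ± 0.13 SE, limma adjusted p = 0.00515). Leaving out any 1 heart gave 0.74 to 0.89.

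Bhlhe41, its close relative, was higher by less. The probe that stood for the gene read -1.18, -1.23 and -0.78 for control hearts, and KO-labelled hearts had -0.38, -0.71 and -0.46. The groups were separate, but only just, between control replicate 3 and KO-labelled replicate 2. The means were -1.06 ± 0.25 and -0.52 ± 0.17 (SD, n = 3 each), a 1.46-fold rise (log2 difference 0.55 ± 0.17 SE, limma adjusted p = 0.0425). The other probe had 0.58 ± 0.20 SE and did not pass when every probe was tested on its own (adjusted p = 0.0613). The linear signal of the first probe was low, between 65.0 and 180.3, and with normexp background correction its difference was 0.31 and did not pass (adjusted p = 0.0693), nor did it pass without KO-labelled replicate 1 (0.105) or 3 (0.117) or control replicate 1 (0.136) or 2 (0.0896).

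Rora, a nuclear receptor that activates Arntl, was lower by a small margin. Its values were 1.10, 0.96 and 0.80 in control hearts and 0.28, 0.64 and 0.51 in KO-labelled hearts. The groups did not overlap, with 0.64 and 0.80 nearest to each other. The means were 0.95 ± 0.15 and 0.48 ± 0.18 (SD, n = 3 each), a 1.39-fold fall (log2 difference -0.47 ± 0.15 SE, limma adjusted p = 0.0422). The call rested on the scaling and on most single hearts. With spike-in scaling, which moved the median of everything tested by 0.24, the difference was -0.23 (adjusted p = 0.332), with cyclic loess it was -0.37 (0.0796), and it did not pass without any 1 of the hearts (adjusted p from 0.0701 to 0.142) except KO-labelled replicate 2 (0.0419). Before any scaling the linear signals overlapped, at 315.8, 389.9 and 256.8 in the control hearts and 285.7, 291.3 and 281.4 in the KO-labelled hearts. Unscaled signals also carry the brightness of each array. Its 75th percentile was 147.4, 200.8 and 147.5 for control and 235.4, 186.7 and 197.6 for KO-labelled hearts. Unscaled Dbp overlapped too (23680 in KO-labelled replicate 2, 23590 in control replicate 3).

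Ciart, the repressor with 3 E-boxes in the sequence above, did not pass. Control hearts had -1.24, -1.99 and -1.38, and KO-labelled hearts had -3.62, -1.90 and -2.76. Replicate 2 of the KO-labelled hearts lay just above the lowest control, while replicates 1 and 3 lay below all controls. The log2 difference was -1.23 ± 0.44 SE (95% interval from -2.27 to -0.18 for this gene alone, limma adjusted p = 0.0652). Its linear signal was low, between 19.1 and 62.6, but well above background on all 6 arrays. The difference was -0.58 with normexp (adjusted p = 0.0606) and -0.79 without KO-labelled replicate 1 (0.123), and it passed without KO-labelled replicate 2 (-1.66, adjusted p = 0.0167).

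**Figure D2:**
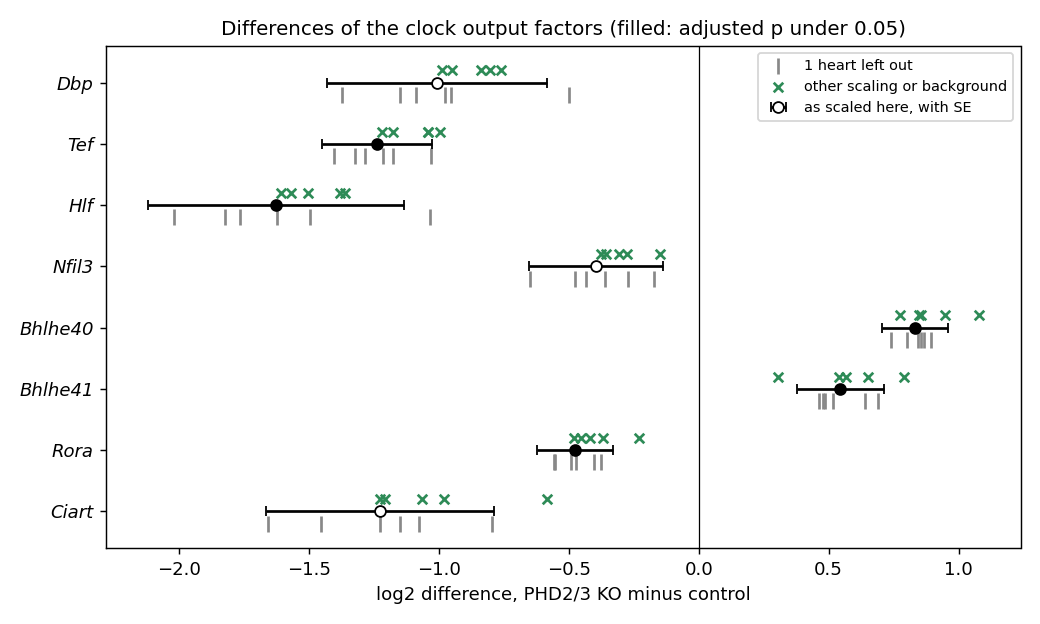
Log2 difference (horizontal axis, KO-labelled minus control) of each gene with its SE as a black bar, filled where the adjusted p was under 0.05; grey ticks give the value with 1 heart left out, and green crosses give it under other scalings or background correction. Every symbol of a gene lies on 1 side of 0, Bhlhe40 and Tef had narrow ranges for their size, and Dbp ranged from -1.37 to -0.50.

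The 8 genes differed in how far hearts of 1 group lay apart. The pooled SD within groups was 0.76 for Hlf, 0.67 for Ciart and 0.65 for Dbp, at the 96.4, 95.1 and 94.7 percentiles of all genes and features tested. In each of these the KO-labelled hearts carried most of it, with an SD of 0.91 against 0.14 in the controls for Dbp and 1.04 against 0.27 for Hlf. Nfil3 (0.37) and Tef (0.29) were at the 81.2 and 70.8 percentiles. Bhlhe41 (0.21), Rora (0.17) and Bhlhe40 (0.12) were at the 53.0, 37.6 and 19.6 percentiles. Dbp, with a larger difference than Bhlhe40 (-1.01 and 0.83), did not pass while Bhlhe40 did.

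**Figure D3:**
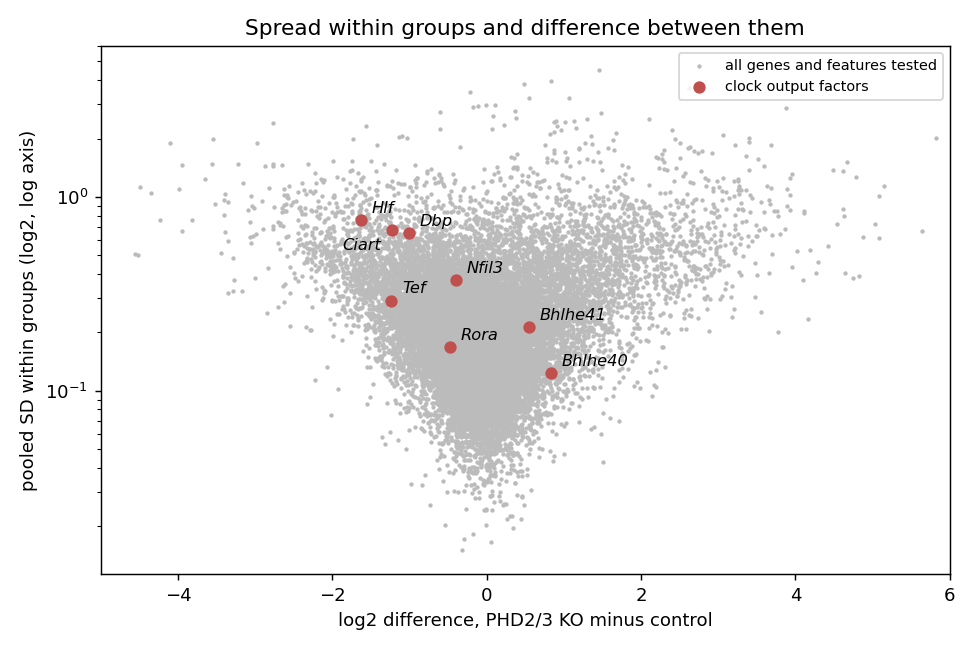
Pooled SD within groups (vertical log axis, log2 units) against the log2 difference (horizontal axis, KO-labelled minus control) for all 20014 genes and features tested (grey; 3 lie outside the plotted range) and the 8 clock output genes (red). Dbp, Hlf and Ciart lie in the upper part of the cloud, with SDs of 0.65 to 0.76, and Bhlhe40, at 0.12, lies below most of it.

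The KO-labelled hearts kept 1 order over most of the 8 genes. Replicate 1 was furthest from the control mean for 7 of 8 (all but Nfil3), beside 54.2% of all genes and features tested and 64.9% of those that passed. For the same 7 the distance then fell from replicate 3 to replicate 2. That order was found for 34.3% of everything tested and 44% of those that passed. It was also found for 64.3% of the core clock genes below, 62.5% of fibroblast markers and 50% of cardiomyocyte markers. Replicate 3 lay between the other KO-labelled hearts for all 8, beside 50.5% of everything tested. This pattern was noticed in these data and was not tested. Replicate 1 was also furthest for 7 of 8 cardiomyocyte markers and 5 of 8 fibroblast markers.

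The core clock genes were read in the same hearts. Of 16 on the list, Npas2 and Cry1 did not reach well above background in any heart. Of the 14 tested 1 was higher and 6 lower (50% called, beside 39.1% of everything tested). Their median was -0.57, against -0.11 over everything tested. This share of calls is too near to that of the whole array to be a result about the list. With spike-in scaling 2 were higher and 2 lower. Arntl, the gene of BMAL1, rose (log2 difference 1.92 ± 0.49 SE, limma adjusted p = 0.0238), and those that fell included the repressor genes Cry2 (-1.02) and Nr1d2 (-0.72), the ubiquitin ligase gene Btrc (-0.75) and the kinase gene Csnk1e (-0.59). Without KO-labelled replicate 1 the Arntl difference was 1.33 and passed (adjusted p = 0.0112), but Arntl did not pass without control replicate 1 or 3, with the replicate number as a block, without a filter on dim probes (adjusted p from 0.0643 to 0.0822) or at an adjusted p of 0.01. With normexp its difference was 0.96 (adjusted p = 0.047). Clock (0.43), Rorb (0.31), Csnk1d (-0.03), Nr1d1 (-0.19), Per1 (-0.56), Per2 (-0.83) and Per3 (-0.57) did not pass (adjusted p from 0.0617 for Per2 to 0.814). Replicate 1 of the KO-labelled hearts was the furthest from the controls for 13 of the 14. Arntl was 0.39 in it and -1.46 and -1.30 in the other KO-labelled hearts, with controls at -3.09, -2.47 and -2.58. Per1 was 3.81 in it, with 4.98 and 5.04 in the others and 5.28, 5.14 and 5.10 in the controls. So in the heart where Dbp, Hlf and Ciart were lowest, Arntl was highest and Per1 lowest of all 6. Without it the median of the 14 was -0.36, with 1 higher and 5 lower; Btrc (-0.57, adjusted p = 0.0703) and Csnk1e (-0.52, 0.0697) no longer passed and Per2 (-0.49, 0.0488) did. Without control replicate 1 or 3 only 1 core clock gene passed, and without KO-labelled replicate 3 it was 4.

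**Figure D4:**
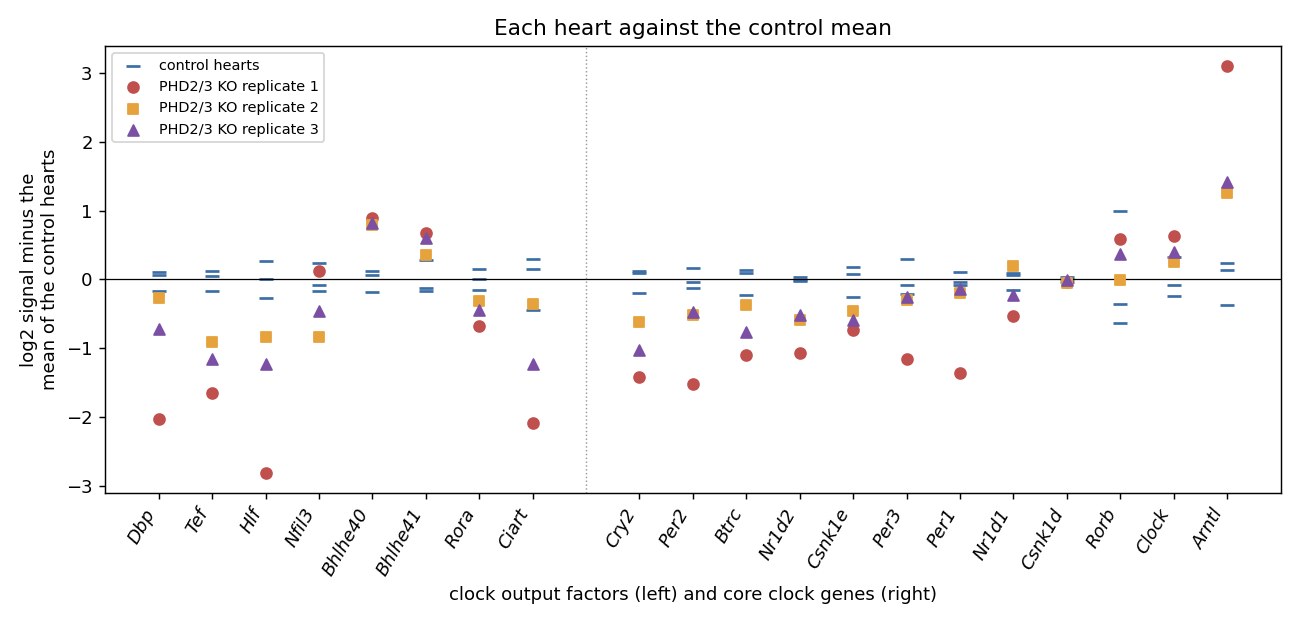
Log2 signal of each heart minus the mean of the control hearts (vertical axis) for the 8 clock output genes on the left and 12 of the 14 tested core clock genes on the right, ordered by difference. Replicate 1 of the KO-labelled hearts (circles) lies furthest out for 7 of 8 and 11 of 12 plotted genes, with Arntl far above the controls and Hlf, Ciart and Dbp far below.

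Among 14 further genes that follow the clock in many tissues, 2 were higher and 5 lower (50% called, beside 39.1% of everything tested), with a median of -0.30, against -0.11 over everything tested. A share this near to that of the whole array is no result about the list. Nampt, the rate-limiting enzyme of NAD salvage, fell 3.80-fold (log2 difference -1.92), the alanine aminotransferase gene Gpt2 fell 3.15-fold, the monooxygenase gene Fmo2 fell 3.15-fold, the deubiquitinase gene Usp2 fell 2.50-fold and the focal adhesion gene Tns2 fell 1.68-fold. The tetraspanin gene Tspan4 rose 1.46-fold and the cell cycle inhibitor gene Cdkn1a rose 2.00-fold. Tsc22d3, a glucocorticoid-induced gene (-0.81, adjusted p = 0.0754), and Wee1, the mitotic kinase gene long known as an E-box target (0.32, adjusted p = 0.248), did not pass. Without KO-labelled replicate 1 the median was -0.26, Cdkn1a no longer passed (0.80, adjusted p = 0.053) and Wee1 did (0.52, 0.0412). Without control replicate 1 or 3 the number called was 3, with Nampt, Gpt2 and Tns2 passing both times.

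Among 13 genes reported to follow the clock in heart muscle, 8 were lower and 0 higher in limma (9 and 0 at an unadjusted p of 0.05). That made 61.5% called, beside 39.1% of everything tested (23% lower). This list, like the other gene lists, was chosen with earlier results of these data known. Its share is therefore no independent result about heart clock genes. The median was -1.31, against -0.11 over everything tested, and it was -0.86 without KO-labelled replicate 1, where the count was again 8 lower and 0 higher. Kcnip2, a subunit of the transient outward potassium channel, fell 10.2-fold, from 2.15, 2.05 and 2.21 to -2.72, -0.20 and -0.73 over the hearts of each group, and 6.07-fold without KO-labelled replicate 1. Klf15, the Krüppel-like factor that drives Kcnip2 rhythms, fell 4.50-fold, from -0.27, -0.76 and -0.14 to -3.75, -1.79 and -2.14, and 2.98-fold without that heart. The triglyceride synthesis gene Dgat2 fell 5.77-fold, from 8.20, 7.72 and 8.14 to 4.07, 6.44 and 5.97, and 3.52-fold without it. In all 3 genes that heart was the lowest, and all 3 passed without it. With normexp the falls of Kcnip2 and Klf15 were 5.75-fold and 2.34-fold. The potassium channel gene Kcnh2 fell 2.53-fold, the Z-disc gene Tcap 2.54-fold, the phosphoinositide 3-kinase subunit gene Pik3r1 2.20-fold and the phosphofructokinase/bisphosphatase gene Pfkfb2 2.53-fold. The 5 that did not pass were Pdk4 (-1.31, adjusted p = 0.0752), Bdh1 (-0.41), Ucp3 (-0.15), Gys1 (0.03) and Pnpla3 (0.27). Replicate 1 of the KO-labelled hearts was the furthest for 10 of the 13, and without control replicate 1 or 3 the number called was 3, with Kcnip2, Pik3r1 and Kcnh2 passing both times. Several of these genes belong to cardiomyocytes, whose markers were lower too (6 of 8, at the summed levels given above).

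The genes with the most similar profiles were found by the root mean square difference over the 6 hearts between log2 values centred on their own means, among 13185 other genes with a symbol. For Dbp the nearest were Dach1, a transcriptional cofactor gene (0.0770), and 1700019D03Rik (0.102). For Hlf they were Ccbe1 (0.116) and the prolactin receptor gene Prlr (0.120), and for Ciart 4430402I18Rik (0.0735) and the bHLH factor gene Tcf15 (0.146). The distance was not scaled by spread, so genes that vary widely over the hearts, as these do, have few near neighbours. Within 0.2 there were 17 genes for Dbp, 19 for Hlf and 13 for Ciart. For Tef, with 464 genes that near, the nearest was the lipid droplet gene Plin4 (0.0382). For Nfil3, with 73, they were Tmem171 (0.0726) and Jmjd4 (0.0980). Bhlhe40 had 732 within 0.2, led by Shisa5 (0.0492) and Brsk1 (0.0495), Bhlhe41 had 858, led by Tbc1d9 (0.0676) and Tbl2 (0.0676), and Rora had 2110, led by Lrch1 (0.0453) and Ganc (0.0482). None of the 8 was among the nearest 2 of another.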

How the data were processed

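Whole-heart RNA was read on 6 arrays, 3 per group. The deposited scanner files hold linear intensity values, background-subtracted and not scaled between arrays, made with Agilent Feature Extraction 11.0.1.1 per the file headers; flags for background, saturation and outliers come from the same files. The deposited value table, an alternative, holds log2 values, and how the authors normalized them is not stated by label or header. For each clock output gene it gave nearly the difference found here (Dbp -1.006 against -1.007, Tef -1.238 against -1.239). It is therefore hardly a separate check. For RNA, the labels name both a column kit and a kit for blood with globin removal.

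Processed signals were taken to log2 without outlier spots, averaged per probe and reduced by the array's 75th percentile. RefSeq accessions named 26551 of the probes (29057 stayed unnamed, and 73 were left out as flagged). Probes well above background on all arrays of at least 1 group were kept, and the brightest stood for its gene. limma 3.58.1 in R 4.3.3 was fitted over all features, 2-sided, with Benjamini-Hochberg adjustment, and was tested on simulated data. Member genes, gene lists and named genes (the 8, the listed clock genes, Egln1, Egln3 and the nearest 2 profiles of each) were chosen with earlier results of these data known. A few genes that count in the lists and profiles are not reported here by name. Normexp used median spot signals, since mean signals are not in these files. Spike-in scaling used the 7 of 10 E1A probes above background on all 6 arrays. The labels do not say that replicate numbers pair hearts, so no block was used. Correlations of deviations were -0.153, -0.119 and -0.082 between hearts of the same number. Between hearts of different numbers they ran from -0.168 to 0.264. With 3 hearts per group, these values cannot exclude a shared batch.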

Additional observations from a re-analysis of the deposited data

How the results depend on the processing

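Of 160 values of the 8 genes under 20 alternatives, 0 changed direction, 128 kept their side of the threshold, 27 no longer passed and 5 newly passed; the causes were not tested. Out of 20, Tef and Bhlhe40 passed under 20, Bhlhe41 under 12, Hlf under 11, Rora under 10, Dbp and Ciart under 2 and Nfil3 under 1. Array weights, whose fit stopped before its tolerance was reached, called 8 of the 8 genes, 11 of the 14 genes that follow the clock in many tissues and 13713 of all features, against 5, 7 and 7817. Cyclic loess and spike-in scaling, which moved the median difference of all features by 0.14 and 0.24, called 3 of the 8 genes each, and spike-in scaling called 4 core clock genes (2 higher, 2 lower) in place of 7 (1 higher, 6 lower). The share of calls that were higher was 41.1%, and it was 55.3% under cyclic loess and 60.3% under spike-in scaling. Without a filter on dim probes the counts were 2 of the 8, 2 core clock genes, 3 that follow the clock in many tissues and 4345 in all. At an adjusted p of 0.01 they were 2, 1, 3 and 3106, with 1 gene of the heart muscle list in place of 8. With the replicate block, which rests on shared numbers only, they were 2, 3, 4 and 4862. Leaving out 1 heart at a time gave 2 to 7 of the 8 genes, 1 to 7 core clock genes, 3 to 8 genes in each of the other lists and 3987 to 8672 in all, lowest in all without control replicates 1 (3987) and 3 (4123) and KO-labelled replicate 3 (5142). Of the 8 genes, 2 passed without control replicate 1, control replicate 2 or KO-labelled replicate 3, and 3 without control replicate 3 or KO-labelled replicate 1. The number of arrays limits precision, and Ciart and Bhlhe41 lay nearest to background.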
